A study of Rattus norvegicus with 9 samples.

Results

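Collagen chains are the polypeptides that assemble, 3 at a time, into the triple helices of the extracellular matrix. The arrays carried 54 probes for 35 genes of such chains among 41012 probes that are not controls. They were chosen by the gene name in the scanner files, which had to read Col, a type number, the letter a and a chain number. A probe was kept if some group had it well above background on each of its 3 arrays, which left 45 of the 54 probes and 28 of the 35 genes, among 22107 genes tested in all. By class, 10 of 11 fibrillar chains, 4 of 5 type IV chains of the basement membrane, 6 of 8 FACIT chains (fibril-associated collagens with interrupted triple helices) and 8 of 11 other chains were tested.

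The RNA came from the contractile cells of the medial layer of the pulmonary artery (PASMCs) of male Sprague-Dawley rats at culture generation 4. There were 9 arrays of 1 colour, 3 for each group. The normoxia group stayed in an ordinary incubator at 37 °C with 5% CO2. The hypoxia group was held in an airtight chamber with 1% O2 and 5% CO2, and the hypoxia and quercetin group was held there with quercetin, a plant flavonol. The protocol put all cells in serum-free DMEM-F12 for 24 h and then gave quercetin or 0.1% DMSO in medium with 10% fetal bovine serum for 24 h. It does not say outright which of the groups without quercetin received DMSO, and the quercetin dose was not given in the sources used here. Nor do the labels say that the 3 samples of a group were separate cultures or animals, so the p-values reflect the spread among these samples alone, and that spread may be technical.

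A collagen chain is a long run of Gly-X-Y triplets, with glycine at the core of the helix. Prolyl hydroxylases, which use molecular oxygen, modify many of its prolines and so make the helix stable at body temperature. Fibrillar collagens bear the tension of the vessel wall, type IV collagens form the sheet-like basement membrane around each smooth muscle cell, and FACIT collagens coat the fibrils. Deposition of collagen in the pulmonary arterial wall is part of the remodelling seen in hypoxic pulmonary hypertension.

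A few of the probe sequences show the repeat, and a few others a stretch shared by fibrillar chains. Only 2 of the 54 collagen probes hold a GGN glycine codon in at least 4 places spaced 9 bases apart, against 0.0366% of all 41012 probes. They are shown because the Gly-X-Y repeat can be read from them directly, with the glycine codons in capitals.

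Col4a5, rn4 chrX:36958983-36959042: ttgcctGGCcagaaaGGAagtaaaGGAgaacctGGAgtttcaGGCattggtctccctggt

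Col9a1, rn4 chr9:22976816-22982770: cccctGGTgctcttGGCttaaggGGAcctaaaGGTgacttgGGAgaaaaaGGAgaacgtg

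The Col4a5 probe is the dimmer of a pair for that gene, and the Col9a1 probe spans 5955 bases of the genome, so it crosses at least 1 intron. The probes of 3 fibrillar chains carry a common stretch, CCCATCATNGATNTNG, searched on the probe strand. It is the best shared run of 16 bases of these probes, compared after their sequences had been read, with N where they differ, and it was found in 3 of the 54 collagen probes and in 3 of all 41012 probes (0.00731%). These 3 probes are shown, with the shared stretch in capitals, because they show how alike these fibrillar chains are over a few codons.

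Col1a1, rn4 chr10:83637903-83637962: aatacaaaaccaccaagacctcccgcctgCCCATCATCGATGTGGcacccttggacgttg

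Col3a1, rn4 chr9:44317465-44317524: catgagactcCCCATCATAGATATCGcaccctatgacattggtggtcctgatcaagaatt

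Col5a2, rn4 chr9:44375560-44375619: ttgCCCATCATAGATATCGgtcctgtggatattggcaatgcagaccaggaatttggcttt

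Outside the capitals these probes differ in sequence, although those of Col1a1 and Col3a1 also share the bases caccct right after the capitals. All coordinates are on rn4, as in the scanner files, and whether a probe lies in an exon or a UTR was not looked up because no rn4 annotation was used here.

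Levels below are log2 of the processed signal minus the 75th percentile of the same array, so that 0 is the brightness below which 75% of the probes of that array lie. Each gene is read from its brightest kept probe, and since probes differ in affinity, the level of one gene is not set against that of another. A difference is given in log2 units with its standard error (±) from a limma fit over all 9 arrays, and passes where the Benjamini-Hochberg adjusted p over 22107 genes is under 0.05. The words rose and fell are kept for differences that passed. Arrays of a group correlated at 0.986 or more over the genes tested, between 52.97% and 74.34% of probes were well above background, and no spot was saturated. Normoxia replicates 1 and 2 lay on one slide, normoxia replicate 3 and all hypoxia arrays on another, and all quercetin arrays on the third. Quercetin and slide therefore cannot be told apart, either in the comparison with hypoxia or in that with normoxia. The slide of normoxia replicates 1 and 2 was also scanned on another day than the rest.

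The identity of the cells was checked on lists of marker genes. The summed level of 7 smooth muscle markers was taken on the linear scale relative to each array's 75th percentile. It lay between 137 and 208 on the normoxia arrays, between 321 and 343 on the hypoxia arrays and between 95.3 and 113 on the quercetin arrays. The brightest probe, of Tagln, adds most to this sum, and no probe bears the name Acta2. Of the 7 markers, 5 rose in hypoxia against normoxia, and Lmod1 and Smtn did not pass (median 0.95), where 35.3% of all genes were higher. With quercetin against hypoxia 6 fell and Smtn did not pass (median -1.31), where 31.6% of all genes were lower. The summed level of 8 fibroblast markers was 123 to 226, 156 to 163 and 49.7 to 62.8 in the same order, a sum to which the brightest probe, of S100a4, adds most. Of these 8 markers, 2 rose, 4 fell and 2 did not pass in hypoxia against normoxia (median -0.68), beside 35.3% of all genes higher and 28.9% lower. Among the 4, Dcn and Dpt were kept only through the normoxia arrays. The summed level of the epithelial list was 3.78 to 5.54, 39.5 to 46.9 and 7.43 to 9.01. Pecam1, Tek and Tie1 of the endothelium, Epcam, Cdh1 and Krt19 of epithelium, and Itgam and Cd3e of leukocytes were not well above background on any array. Vwf, Sftpc and Cd79a were above background on some arrays but were not tested. The other members of these lists were detected and tested. In hypoxia against normoxia, Krt7, Krt8 and Krt18 rose by 3.12, 2.15 and 4.93 (log2), and Scgb1a1 did not pass. Of leukocyte markers, Lyz2, Csf1r and Cd74 rose by 4.10, 0.70 and 0.34, and Ptprc and Cd68 did not pass. The endothelial Cdh5 and Kdr did not pass. The part of these shifts in the collagen differences was not tested. In RNA from whole cultures, fewer cells of a type and less RNA per cell cannot be told apart.

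Hypoxia against normoxia addressed the effect of low oxygen. Of the 28 collagen chains tested, 22 rose in hypoxia, 2 fell and 4 did not pass, where 64.2% of all genes tested passed, 35.3% higher and 28.9% lower. The median difference of the 28 chains was 0.97, beside 0.10 over all genes. Col15a1, a multiplexin of the basement membrane zone, rose 8.39-fold, and the fibrillar chain Col27a1 rose 3.96-fold. Col4a3, a dim type IV chain kept only through the hypoxia arrays, rose 6.89-fold, which was 0.89 on the log2 scale (adjusted p = 0.21) with normexp background correction. Col8a1, which builds the hexagonal network of type VIII collagen, and the fibrillar chain Col11a2 fell. At least 2-fold rises were found in 13 chains (11.3% of all genes), and the arrays of hypoxia and normoxia did not overlap in 24 chains (71.7% of all genes). Set against normoxia replicate 3 alone, which shared the slide of the hypoxia arrays (slide as a fixed block), 20 chains were higher and 2 lower, with a median difference of 0.68, where 22.8% of all genes were higher and 21.3% lower.

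Hypoxia with quercetin against hypoxia addressed what quercetin did under low oxygen. Here 18 of the 28 chains fell, 2 rose and 8 did not pass, where 58.4% of all genes passed, 26.9% higher and 31.6% lower. With quantile normalization the split was 4 higher and 12 lower, where 28.5% of all genes were higher and 27.9% lower. The median difference was -0.57 against -0.08 over all genes. The falls were led by Col4a5, 4.5-fold, Col15a1, 4.47-fold, and Col9a2, a FACIT chain of cartilage-type fibrils, 4.43-fold, and the chains that rose were Col11a2 and Col8a1 (Col11a2 alone without hypoxia replicate 2 or quercetin replicate 1 or 3, which leaves 1). At least 2-fold falls were found in 10 chains (9.90% of all genes), and the groups did not overlap in 23 chains (71.1% of all genes).

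Hypoxia with quercetin against normoxia asked how far the cells treated under hypoxia stood from untreated cells in ordinary air. Of the 28 chains, 13 were higher, 4 were lower and 11 did not pass, where 44.3% of all genes passed, 23.0% higher and 21.3% lower. The median difference was 0.26 against 0.04 over all genes. Col10a1, Col4a3, Col27a1 and Col4a1 were at least 2-fold higher (4 chains, 5.70% of all genes). Of these, the dim Col10a1 was kept only through the quercetin arrays and the dim Col4a3 only through the hypoxia arrays, and with normexp they gave 0.65 (adjusted p = 0.40) and 0.55 (adjusted p = 0.55). Col14a1 alone was at least 2-fold lower (7.24% of all genes), and gave -0.40 (adjusted p = 0.59) with normexp. The groups did not overlap in 18 chains (53.6% of all genes). Scaling on spiked-in control RNA, which moved the median of all genes from 0.10 to -0.40 in hypoxia against normoxia and from 0.04 to -0.37 here, gave 5 higher and 10 lower, where 7.42% of all genes were higher and 44.5% lower. With the scan day as a block, which leaves normoxia replicate 3 as the only control, 5 were higher and 8 lower, with a median difference of 0.06, where 12.3% of all genes were higher and 14.0% lower. Without normoxia replicate 1 or quercetin replicate 1 there were 8 chains higher, and without quercetin replicate 3 there were 7. The 3 comparisons share arrays, so they are not independent of one another.

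**Figure D1:**
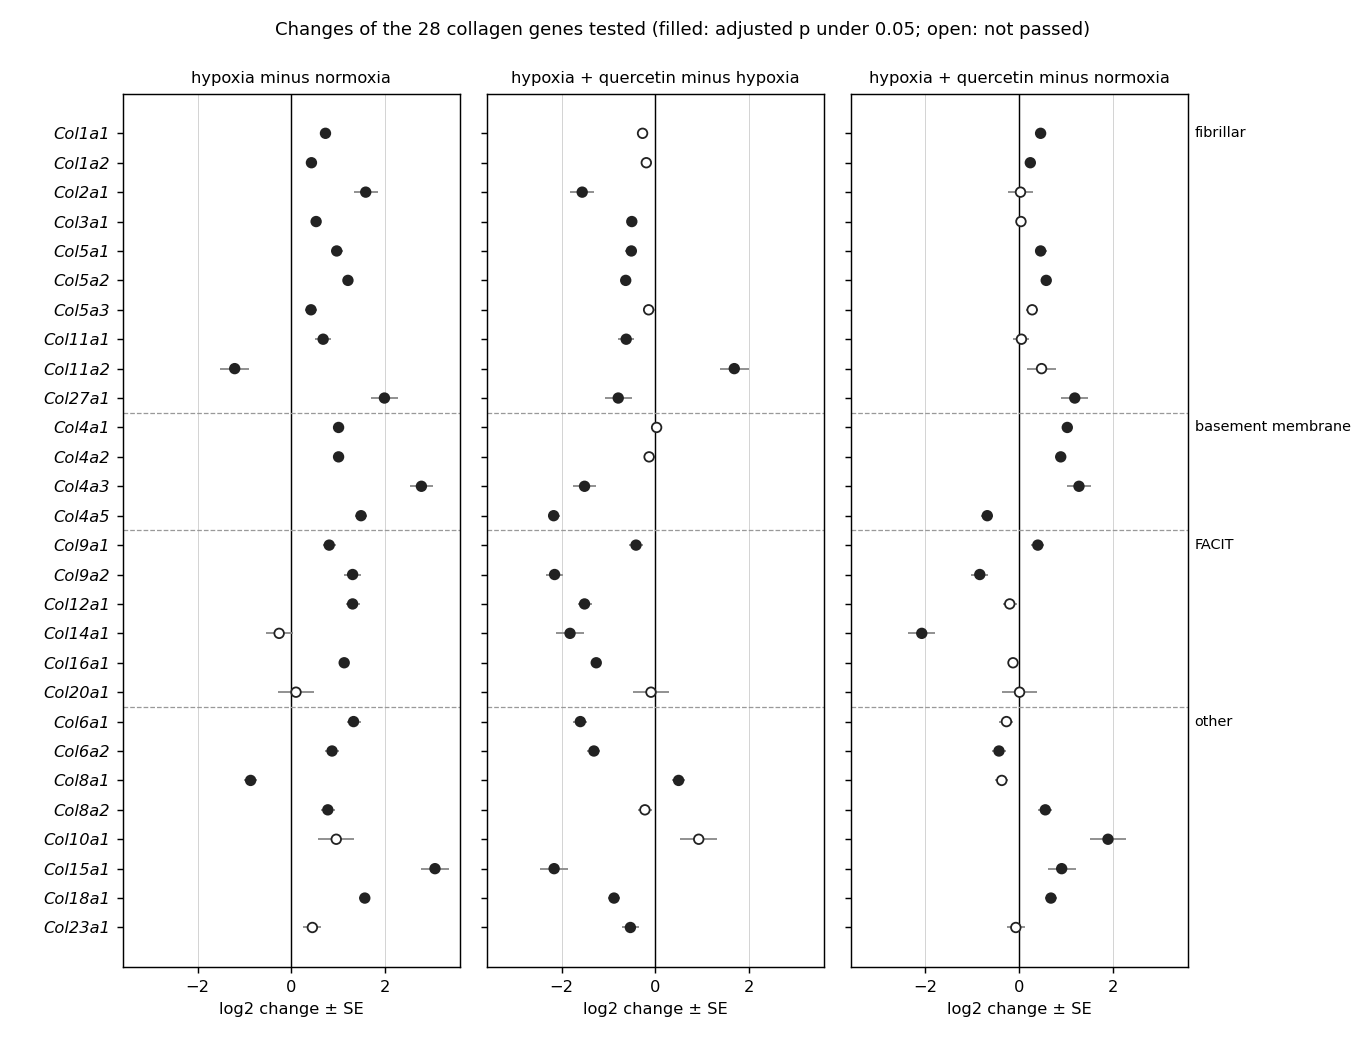
Log2 difference (horizontal axis, ± standard error) of each of the 28 tested collagen chains in hypoxia against normoxia, hypoxia with quercetin against hypoxia, and hypoxia with quercetin against normoxia. Filled points passed at an adjusted p under 0.05: 22 higher and 2 lower in the first panel, 2 higher and 18 lower in the second, 13 higher and 4 lower in the third.

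**Figure D2:**
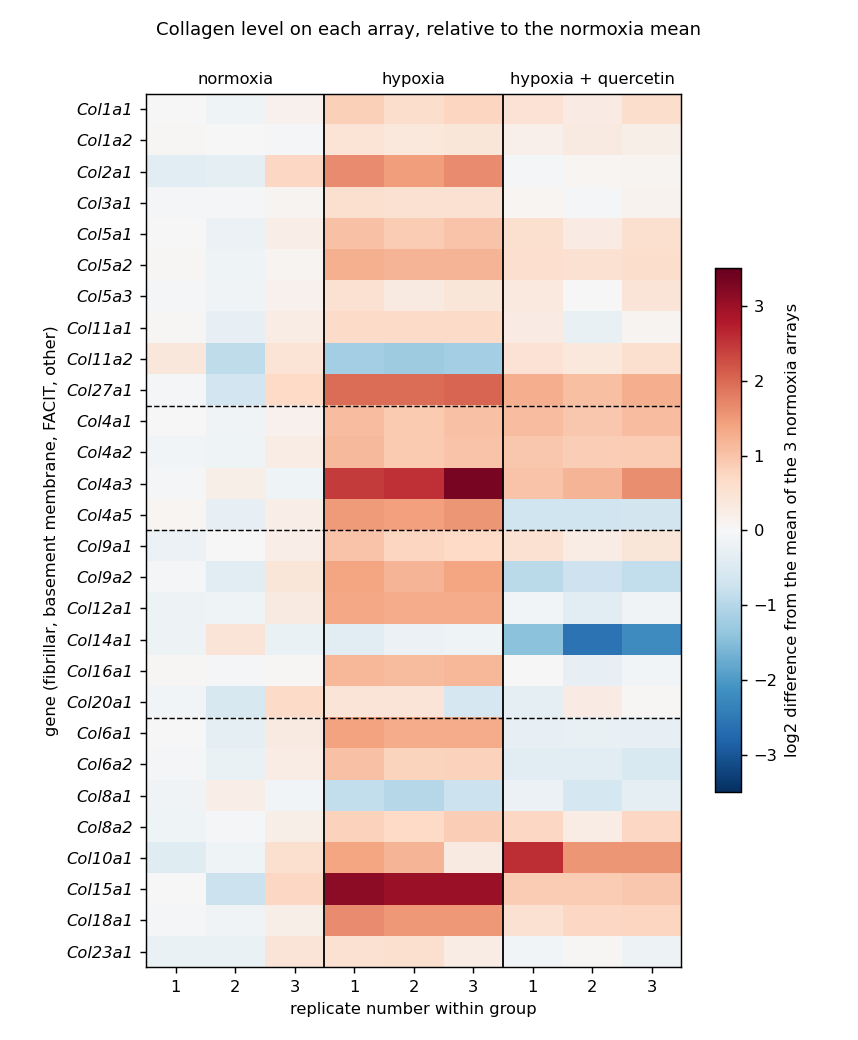
Heat map of the 28 tested chains (rows, by class) on the 9 arrays (columns), as the log2 level minus the normoxia mean of that chain. The hypoxia columns are above the normoxia mean for most chains, and the median SD within a group was 0.24 in normoxia, 0.09 in hypoxia and 0.12 with quercetin.

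The fibrillar chains all passed in hypoxia against normoxia: 9 of the 10 tested rose and Col11a2 fell, with a median difference of 0.70. With quercetin against hypoxia 6 fell, Col11a2 rose and 3 did not pass (median -0.50). Against normoxia, 5 were higher with quercetin and 5 did not pass (median 0.37). In these comparisons 35.3%, 26.9% and 23.0% of all genes were higher and 28.9%, 31.6% and 21.3% lower. Type I collagen, the main tensile collagen of the vessel wall, is built from Col1a1 and Col1a2. Col1a1 read 8.33, 8.18 and 8.49 in normoxia, 9.17, 8.94 and 9.09 in hypoxia and 8.84, 8.61 and 8.94 with quercetin. Every hypoxia array was above every normoxia array, and the quercetin arrays lay between them. The highest quercetin array was below the lowest hypoxia array only beyond the decimals shown (8.94 for each). The gene rose by 0.73 ± 0.12 (1.66-fold, adjusted p = 0.001) in hypoxia and rose by 0.46 ± 0.12 (1.38-fold, adjusted p = 0.016) with quercetin against normoxia, and the difference between quercetin and hypoxia was -0.27 ± 0.12 (adjusted p = 0.087). Col1a2 read 8.26, 8.20 and 8.19 in normoxia, 8.70, 8.60 and 8.65 in hypoxia and 8.41, 8.54 and 8.42 with quercetin. The groups stood in the same order with no overlap. Col1a2 rose by 0.43 ± 0.08 (1.35-fold, adjusted p = 0.0015) in hypoxia and rose by 0.24 ± 0.08 (1.18-fold, adjusted p = 0.035) with quercetin against normoxia, while quercetin against hypoxia gave -0.19 ± 0.08 (adjusted p = 0.063).

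Type III collagen, the partner of type I in distensible vessel walls, is built from Col3a1 alone. Col3a1 read 8.57, 8.54 and 8.70 in normoxia, 9.16, 9.12 and 9.12 in hypoxia and 8.66, 8.54 and 8.72 with quercetin. The hypoxia arrays were all above the others, and the normoxia and quercetin arrays overlapped. It rose by 0.53 ± 0.09 (1.45-fold, adjusted p = 8.4e-04) in hypoxia and fell by 0.50 ± 0.09 (1.41-fold, adjusted p = 0.0014) with quercetin against hypoxia, and quercetin against normoxia gave 0.04 ± 0.09 (adjusted p = 0.76). For some type I and type III differences the direction hung on the scaling. Col1a1 kept its sign in hypoxia against normoxia, and Col3a1 in quercetin against hypoxia. Under quantile normalization, Col1a1 had a difference of 0.17 (adjusted p = 0.36) in hypoxia against normoxia, Col1a2 turned to -0.16 and Col3a1 to -0.04, and Col1a2 rose by 0.23 with quercetin against hypoxia. The fall of Col3a1 with quercetin against hypoxia was -0.06 (adjusted p = 0.68) there and -0.07 (adjusted p = 0.62) in the authors' deposited table. The rise of Col1a2 in hypoxia was 0.50 (adjusted p = 0.068) with normexp. Scaling on the spike-ins gave 0.23 (adjusted p = 0.24) for Col1a1, -0.07 for Col1a2 and 0.03 (adjusted p = 0.85) for Col3a1 in hypoxia, and -0.17 for Col1a2 and -0.37 for Col3a1 in quercetin against normoxia. The difference of Col1a1 between quercetin and normoxia did not pass without quercetin replicate 3 (0.39, adjusted p = 0.063). Col1a2 did not pass there without any 1 of 8 arrays, all but normoxia replicate 2 (0.20 to 0.27, adjusted p from 0.055 to 0.074), while its fall against hypoxia passed without normoxia replicate 2 (-0.19, adjusted p = 0.043) or quercetin replicate 2 (-0.24, adjusted p = 0.031).

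Type V collagen sits inside the type I fibril and helps set its width, and type XI is its relative in the type II fibrils of cartilage. Col5a2 read 7.96, 7.78 and 8.02 in normoxia, 9.17, 9.10 and 9.12 in hypoxia and 8.51, 8.45 and 8.54 with quercetin. The 3 groups were fully separate, with hypoxia highest and normoxia lowest. Col5a2 rose by 1.21 ± 0.09 (2.32-fold, adjusted p = 1.3e-05) in hypoxia, fell by 0.63 ± 0.09 (1.55-fold, adjusted p = 4.4e-04) with quercetin against hypoxia, and rose by 0.58 ± 0.09 (1.5-fold, adjusted p = 0.0011) with quercetin against normoxia. Its fall did not pass with quantile normalization (-0.21, adjusted p = 0.13) or in the authors' deposited table (-0.22, adjusted p = 0.11). Col5a1 read 5.14, 4.95 and 5.37 in normoxia, 6.17, 6.05 and 6.15 in hypoxia and 5.70, 5.43 and 5.71 with quercetin. It showed the same order of groups without overlap. Col5a1 rose by 0.97 ± 0.13 (1.96-fold, adjusted p = 3.0e-04), fell by 0.51 ± 0.13 (1.42-fold, adjusted p = 0.0095) and rose by 0.46 ± 0.13 (1.38-fold, adjusted p = 0.02) in the same 3 comparisons. Col5a3, the least known of the type V chains, read 2.46, 2.37 and 2.66 in normoxia, 3.02, 2.81 and 2.92 in hypoxia and 2.84, 2.52 and 2.96 with quercetin. Its quercetin arrays overlapped both other groups. It rose by 0.42 ± 0.13 (1.34-fold, adjusted p = 0.024) in hypoxia, and gave -0.14 ± 0.13 (adjusted p = 0.39) and 0.28 ± 0.13 (adjusted p = 0.13) with quercetin against hypoxia and normoxia. Its rise did not pass without normoxia replicate 1 or 2 or hypoxia replicate 1 or 3 (0.36 to 0.42, adjusted p from 0.058 to 0.079), nor with the slide as a block (0.26, adjusted p = 0.28), and turned to -0.08 with spike-in scaling. It was also higher in quercetin against normoxia without quercetin replicate 2 (0.40, adjusted p = 0.028). For Col5a1, quercetin against normoxia did not pass without normoxia replicate 1 or quercetin replicate 1 or 3 (0.41 to 0.45, adjusted p from 0.056 to 0.073), nor with the scan day as a block (0.24, adjusted p = 0.29). Its fall with quercetin against hypoxia was -0.13 (adjusted p = 0.49) with quantile normalization and in the authors' deposited table, and -0.42 (adjusted p = 0.052) with spike-in scaling.

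Col11a1 read 4.44, 4.11 and 4.67 in normoxia, 5.09, 5.08 and 5.07 in hypoxia and 4.70, 4.16 and 4.51 with quercetin. The hypoxia arrays were higher than all others and nearly identical, and normoxia and quercetin overlapped. It rose by 0.68 ± 0.17 (1.6-fold, adjusted p = 0.0087) in hypoxia and fell by 0.62 ± 0.17 (1.54-fold, adjusted p = 0.014) with quercetin against hypoxia, with 0.05 ± 0.17 (adjusted p = 0.83) against normoxia. Its rise did not pass with quantile normalization (0.44, adjusted p = 0.078), with spike-in scaling (0.17, adjusted p = 0.49), with normexp (0.71, adjusted p = 0.06) or with the slide as a block (0.41, adjusted p = 0.16). Its fall did not pass with quantile normalization (-0.37, adjusted p = 0.13), in the authors' deposited table (-0.37, adjusted p = 0.13) or with spike-in scaling (-0.53, adjusted p = 0.05). Col11a2, its partner in type XI collagen, ran the other way. It read 0.65, -0.63 and 0.72 in normoxia, -0.95, -1.0 and -0.94 in hypoxia and 0.75, 0.63 and 0.80 with quercetin. All hypoxia arrays were below all others, and normoxia replicate 2 stood apart from the other normoxia arrays. Col11a2 fell by 1.21 ± 0.31 (2.32-fold, adjusted p = 0.0094) in hypoxia and rose by 1.69 ± 0.31 (3.22-fold, adjusted p = 0.002) with quercetin against hypoxia, and gave 0.48 ± 0.31 (adjusted p = 0.26) against normoxia.

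Col27a1, a fibrillar chain known from developing cartilage, read -0.16, -0.79 and 0.59 in normoxia, 1.84, 1.84 and 1.93 in hypoxia and 1.14, 0.94 and 1.14 with quercetin. The groups were separate, and the normoxia arrays spread widely. It rose by 1.99 ± 0.29 (3.96-fold, adjusted p = 4.9e-04) in hypoxia, fell by 0.79 ± 0.29 (1.73-fold, adjusted p = 0.043) with quercetin against hypoxia, and rose by 1.19 ± 0.29 (2.29-fold, adjusted p = 0.011) with quercetin against normoxia. The fall against hypoxia did not pass without normoxia replicate 1 or without any of the hypoxia or quercetin arrays (-0.83 to -0.73, adjusted p from 0.061 to 0.11), nor with quantile normalization (-0.74, adjusted p = 0.059) or spike-in scaling (-0.70, adjusted p = 0.068). Col2a1, the main collagen of cartilage, read -3.22, -3.20 and -2.13 in normoxia, -1.19, -1.39 and -1.20 in hypoxia and -2.93, -2.78 and -2.76 with quercetin. Hypoxia was above the other groups, and normoxia replicate 3 lay between the other 2 normoxia arrays and the hypoxia arrays. Col2a1 rose by 1.59 ± 0.26 (3.01-fold, adjusted p = 9.9e-04) in hypoxia and fell by 1.56 ± 0.26 (2.96-fold, adjusted p = 0.0012) with quercetin against hypoxia, and gave 0.03 ± 0.26 (adjusted p = 0.94) against normoxia. Against normoxia replicate 3 on its slide the rise was 0.88, and with the scan day as a block quercetin against normoxia was -0.69 (adjusted p = 0.0094), while without normoxia replicate 3 it was 0.39 (adjusted p = 0.02). Normexp background correction gave 0.76 (adjusted p = 0.089) for its rise in hypoxia and -0.61 (adjusted p = 0.18) for its fall with quercetin. Of the 5 other cartilage genes, 3 rose in hypoxia and 2 fell, beside 35.3% of all genes higher and 28.9% lower. Acan and Comp rose by 1.83 and 1.63 (log2), Matn1 rose from normoxia arrays of which only 1 of 3 was well above background, and Sox9 and Snorc fell, by 0.72 and 1.18.

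**Figure D3:**
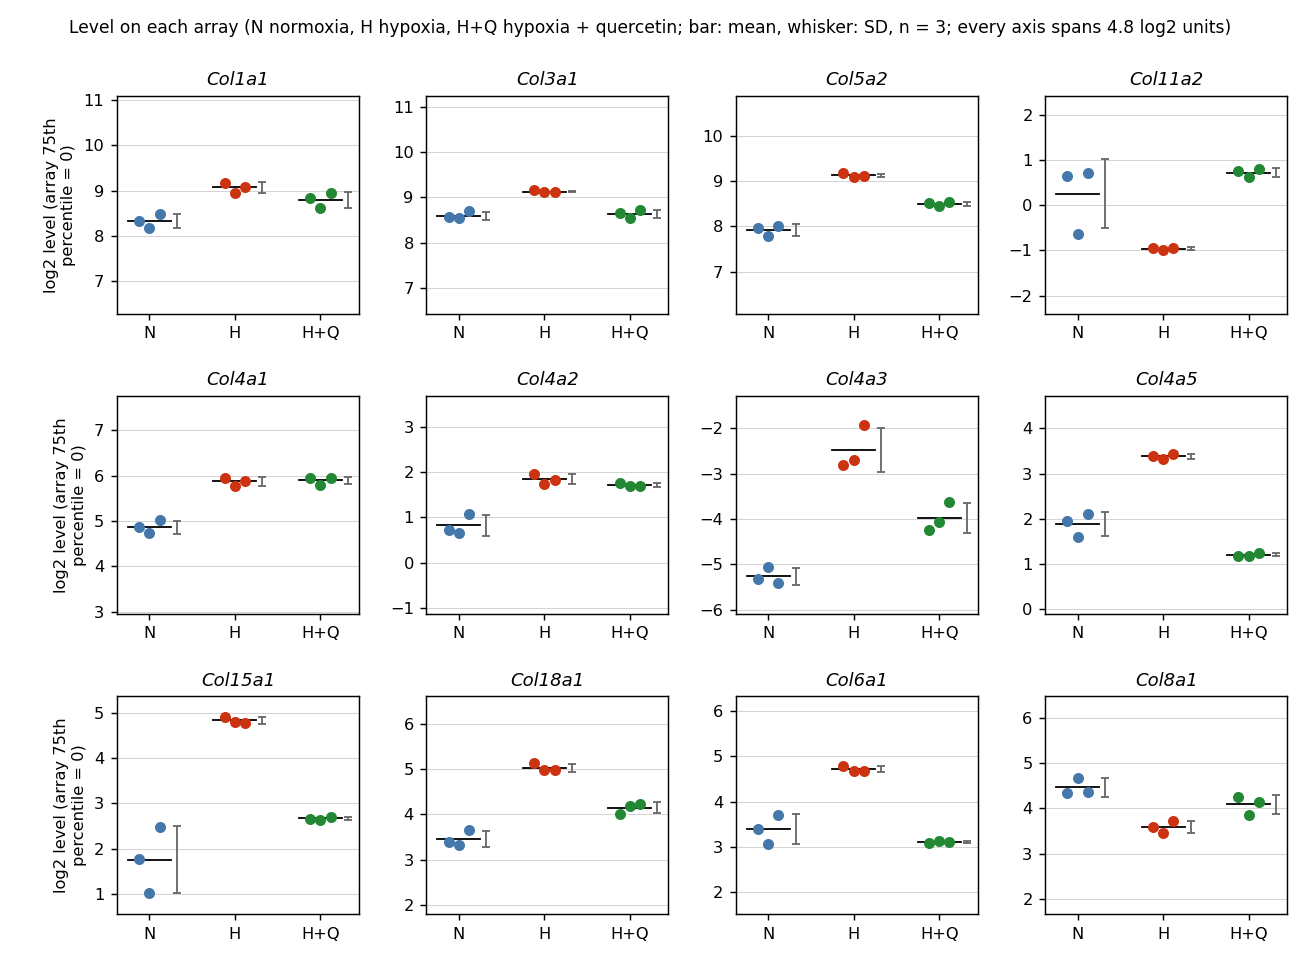
Log2 level (vertical axis, relative to the 75th percentile of the array) of 12 chains on each of the 9 arrays, with the mean and SD of each group of 3. Each panel is a different probe, so heights are compared only within a panel. Col4a5 and Col6a1 fell with quercetin to or below the normoxia arrays, while Col4a1 and Col4a2 stayed near the hypoxia arrays.

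The type IV chains all rose in hypoxia (4 of 4, median 1.25), where 35.3% of all genes were higher. Among them, the dim Col4a3 was kept only through the hypoxia arrays, and its rise did not pass with normexp (0.89). With quercetin the chains split: against hypoxia, Col4a3 and Col4a5 fell, and the differences of Col4a1 and Col4a2 did not pass (median -0.82). Col4a1 and Col4a2 form the common heterotrimer of vascular basement membranes. Col4a1 read 4.86, 4.73 and 5.01 in normoxia, 5.95, 5.78 and 5.88 in hypoxia and 5.94, 5.80 and 5.94 with quercetin. The hypoxia and quercetin arrays overlapped, and all 6 stood above normoxia. Col4a1 rose by 1.01 ± 0.10 (2.01-fold, adjusted p = 6.0e-05) in hypoxia and rose by 1.03 ± 0.10 (2.05-fold, adjusted p = 1.2e-04) with quercetin against normoxia, and quercetin against hypoxia gave 0.03 ± 0.10 (adjusted p = 0.83). Col4a2 read 0.73, 0.66 and 1.08 in normoxia, 1.95, 1.74 and 1.82 in hypoxia and 1.75, 1.68 and 1.70 with quercetin. It lay above normoxia on all arrays of both hypoxic groups, and the hypoxic groups overlapped. Col4a2 rose by 1.01 ± 0.12 (2.02-fold, adjusted p = 1.7e-04) in hypoxia and rose by 0.89 ± 0.12 (1.85-fold, adjusted p = 6.7e-04) with quercetin against normoxia, with -0.13 ± 0.12 (adjusted p = 0.4) against hypoxia. With quantile normalization Col4a1 was higher with quercetin than in hypoxia (0.42, adjusted p = 0.013).

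Col4a3 and Col4a5, which join Col4a4 in a heterotrimer best known from kidney and lung basement membranes, were the chains that fell. Col4a5 read 1.95, 1.60 and 2.11 in normoxia, 3.38, 3.33 and 3.44 in hypoxia and 1.19, 1.19 and 1.25 with quercetin. The 3 groups were separate, with hypoxia highest and the quercetin arrays lowest. Col4a5 rose by 1.49 ± 0.13 (2.82-fold, adjusted p = 2.7e-05) in hypoxia, fell by 2.17 ± 0.13 (4.5-fold, adjusted p = 7.6e-06) with quercetin against hypoxia and fell by 0.68 ± 0.13 (1.6-fold, adjusted p = 0.0032) against normoxia. Col4a3 read -5.32, -5.05 and -5.41 in normoxia, -2.81, -2.69 and -1.93 in hypoxia and -4.25, -4.07 and -3.62 with quercetin. It was dim, well above background on 2 of 3 normoxia arrays, 3 of 3 hypoxia arrays and 2 of 3 quercetin arrays, but the groups did not overlap. Col4a3 rose by 2.78 ± 0.25 (6.89-fold, adjusted p = 3.8e-05) in hypoxia, fell by 1.51 ± 0.25 (2.84-fold, adjusted p = 0.0012) with quercetin against hypoxia, and rose by 1.28 ± 0.25 (2.43-fold, adjusted p = 0.0042) with quercetin against normoxia. With normexp its rise in hypoxia was 0.89 (adjusted p = 0.21), its fall with quercetin was -0.34 (adjusted p = 0.65) and its difference between quercetin and normoxia was 0.55 (adjusted p = 0.55), and the cause was not tested. Col4a4 was too dim to test.

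Among the FACIT chains, 4 of 6 rose in hypoxia, where 35.3% of all genes were higher, and the differences of Col14a1 and Col20a1 did not pass (median 0.97). With quercetin against hypoxia 5 of 6 fell (median -1.39), where 31.6% of all genes were lower. In quercetin against normoxia Col9a1 was higher, Col9a2 and Col14a1 lower, and 3 did not pass (median -0.17), beside 23.0% of all genes higher and 21.3% lower. Types XII and XVI link fibrils to their surroundings. Col12a1 read -0.15, -0.14 and 0.34 in normoxia, 1.36, 1.33 and 1.32 in hypoxia and -0.07, -0.36 and -0.10 with quercetin. Hypoxia stood above all other arrays, and quercetin overlapped normoxia. Col12a1 rose by 1.31 ± 0.15 (2.49-fold, adjusted p = 1.1e-04) in hypoxia and fell by 1.51 ± 0.15 (2.86-fold, adjusted p = 6.7e-05) with quercetin, with -0.20 ± 0.15 (adjusted p = 0.31) against normoxia. Col16a1 read 4.51, 4.39 and 4.49 in normoxia, 5.61, 5.56 and 5.62 in hypoxia and 4.44, 4.18 and 4.37 with quercetin. The hypoxia arrays were again apart from the rest. Col16a1 rose by 1.13 ± 0.09 (2.19-fold, adjusted p = 2.2e-05) and fell by 1.26 ± 0.09 (2.4-fold, adjusted p = 1.7e-05) in the same comparisons, and gave -0.13 ± 0.09 (adjusted p = 0.28) against normoxia. Col14a1, which regulates fibril growth, read -2.74, -2.11 and -2.79 in normoxia, -2.94, -2.76 and -2.71 in hypoxia and -3.98, -5.13 and -4.76 with quercetin. Here normoxia and hypoxia overlapped and the quercetin arrays were below both, with 2 of the 3 well above background. Col14a1 gave -0.26 ± 0.29 (adjusted p = 0.46) in hypoxia, fell by 1.82 ± 0.29 (3.54-fold, adjusted p = 9.3e-04) with quercetin against hypoxia and fell by 2.08 ± 0.29 (4.23-fold, adjusted p = 7.4e-04) against normoxia. With normexp the fall against hypoxia was -0.26 (adjusted p = 0.66) and that against normoxia -0.40, which did not pass either. Relative to normoxia replicate 3 alone, with the scan day as a block, Col12a1 was lower with quercetin (-0.53, adjusted p = 0.03), as it was with spike-in scaling (-0.61).

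Type IX collagen decorates type II fibrils in cartilage. Col9a2 read 2.37, 2.07 and 2.86 in normoxia, 3.81, 3.61 and 3.80 in hypoxia and 1.50, 1.70 and 1.58 with quercetin. The groups were separate, with quercetin lowest. Col9a2 rose by 1.31 ± 0.18 (2.48-fold, adjusted p = 3.9e-04) in hypoxia, fell by 2.15 ± 0.18 (4.43-fold, adjusted p = 3.6e-05) with quercetin against hypoxia and fell by 0.84 ± 0.18 (1.78-fold, adjusted p = 0.0066) against normoxia, and the last was -0.85 (adjusted p = 0.053) with normexp. Col9a1 read 1.10, 1.28 and 1.53 in normoxia, 2.29, 2.05 and 2.01 in hypoxia and 1.82, 1.56 and 1.72 with quercetin. The order was hypoxia, quercetin, normoxia with no overlap. Col9a1 rose by 0.81 ± 0.14 (1.76-fold, adjusted p = 0.001) in hypoxia, fell by 0.41 ± 0.14 (1.33-fold, adjusted p = 0.029) with quercetin against hypoxia and rose by 0.40 ± 0.14 (1.32-fold, adjusted p = 0.043) against normoxia. The latter did not pass without normoxia replicate 1 or 2, hypoxia replicate 2 or 3, or quercetin replicate 1 or 3 (0.30 to 0.40, adjusted p from 0.056 to 0.14), and was -0.01 with spike-in scaling. Its fall against hypoxia did not pass without hypoxia replicate 1 or 2 or quercetin replicate 2 or 3 (-0.45 to -0.33, adjusted p from 0.052 to 0.10), and was -0.33 (adjusted p = 0.074) with quantile normalization, -0.46 (adjusted p = 0.084) with normexp and -0.32 (adjusted p = 0.12) with spike-in scaling. Its rise in hypoxia was 0.31 (adjusted p = 0.13) with spike-in scaling. These values come from the Col9a1 probe with the glycine repeat, and the other kept probe gave 0.05 ± 0.18 (adjusted p = 0.84) in quercetin against normoxia. Col20a1 was dim and passed in no comparison. It read -5.15, -5.62 and -4.37 in normoxia, -4.61, -4.60 and -5.65 in hypoxia and -5.37, -4.77 and -5.0 with quercetin, and the groups overlapped throughout.

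The multiplexins Col15a1 and Col18a1, which sit between basement membrane and fibrils and release anti-angiogenic fragments from their C-terminal ends, both rose in hypoxia and fell with quercetin. Col15a1 (probe at rn4 chr5:63929676-63929735) read 1.77, 1.02 and 2.48 in normoxia, 4.90, 4.79 and 4.78 in hypoxia and 2.66, 2.64 and 2.70 with quercetin. The hypoxia arrays lay close together far above the rest, the normoxia arrays were spread widely, and quercetin stood just above the highest of them. Col15a1 rose by 3.07 ± 0.30 (8.39-fold, adjusted p = 5.6e-05) in hypoxia, fell by 2.16 ± 0.30 (4.47-fold, adjusted p = 4.6e-04) with quercetin against hypoxia, and rose by 0.91 ± 0.30 (1.88-fold, adjusted p = 0.039) with quercetin against normoxia. The last of these did not pass without any 1 of 8 arrays, all but normoxia replicate 3 (0.54 to 0.92, adjusted p from 0.054 to 0.095, with 0.54 without normoxia replicate 2). With the scan day as a block it was 0.18 (adjusted p = 0.63), and the rise in hypoxia was 2.34 against normoxia replicate 3 on its slide. Col18a1 (rn4 chr20:11981417-11981476) read 3.38, 3.33 and 3.66 in normoxia, 5.12, 4.97 and 4.98 in hypoxia and 4.0, 4.19 and 4.22 with quercetin. Its 3 groups were separate. Col18a1 rose by 1.57 ± 0.12 (2.96-fold, adjusted p = 1.4e-05), fell by 0.88 ± 0.12 (1.85-fold, adjusted p = 3.2e-04) and rose by 0.68 ± 0.12 (1.6-fold, adjusted p = 0.002) in the same comparisons, and the last was 0.27 (adjusted p = 0.091) with spike-in scaling.

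Type VI collagen forms beaded filaments around cells from Col6a1, Col6a2 and a longer partner chain. Col6a1 read 3.39, 3.06 and 3.71 in normoxia, 4.79, 4.68 and 4.69 in hypoxia and 3.1, 3.14 and 3.11 with quercetin. Hypoxia was above all others, and quercetin overlapped the lower normoxia arrays. Col6a1 rose by 1.33 ± 0.15 (2.52-fold, adjusted p = 1.1e-04) in hypoxia and fell by 1.60 ± 0.15 (3.04-fold, adjusted p = 5.5e-05) with quercetin, with -0.27 ± 0.15 (adjusted p = 0.18) against normoxia. Col6a2 read -0.53, -0.74 and -0.24 in normoxia, 0.52, 0.27 and 0.32 in hypoxia and -0.90, -0.87 and -1.04 with quercetin. Hypoxia was highest and quercetin lowest, without overlap. Col6a2 rose by 0.87 ± 0.14 (1.83-fold, adjusted p = 7.6e-04), fell by 1.31 ± 0.14 (2.47-fold, adjusted p = 1.0e-04) and, against normoxia, fell by 0.43 ± 0.14 (1.35-fold, adjusted p = 0.032). That last fall did not pass without normoxia replicate 1 or 3 or any quercetin array (-0.47 to -0.30, adjusted p from 0.051 to 0.11), whereas Col6a1 was lower than normoxia without normoxia replicate 2 (-0.43, adjusted p = 0.014) or with the scan day as a block (-0.59, adjusted p = 0.023).

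The network-forming chains moved in different directions. Col8a1 and Col8a2 make up type VIII collagen, which vascular cells lay down in injured arteries. Col8a1 read 4.33, 4.68 and 4.36 in normoxia, 3.59, 3.46 and 3.72 in hypoxia and 4.26, 3.85 and 4.15 with quercetin. All hypoxia arrays were below all others. Col8a1 fell by 0.87 ± 0.14 (1.82-fold, adjusted p = 9.9e-04) in hypoxia and rose by 0.50 ± 0.14 (1.41-fold, adjusted p = 0.017) with quercetin against hypoxia, with -0.37 ± 0.14 (adjusted p = 0.067) against normoxia. Col8a2 read 1.33, 1.45 and 1.68 in normoxia, 2.29, 2.18 and 2.33 in hypoxia and 2.20, 1.73 and 2.20 with quercetin. Normoxia was below both other groups, and quercetin overlapped hypoxia. Col8a2 rose by 0.78 ± 0.15 (1.72-fold, adjusted p = 0.0021) in hypoxia and rose by 0.56 ± 0.15 (1.47-fold, adjusted p = 0.016) with quercetin against normoxia, with -0.22 ± 0.15 (adjusted p = 0.24) against hypoxia. The rise of Col8a1 with quercetin did not pass without hypoxia replicate 2 or quercetin replicate 1 or 3 (0.41 to 0.47, adjusted p from 0.056 to 0.062), nor with normexp (0.33, adjusted p = 0.14), and that of Col8a2 against normoxia did not without normoxia replicate 1 or quercetin replicate 1 or 3 (0.48 each, adjusted p from 0.055 to 0.061). The rise of Col8a2 in hypoxia was 0.28 (adjusted p = 0.24) with spike-in scaling.

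Col10a1, the collagen of hypertrophic cartilage, read -6.34, -6.06 and -5.34 in normoxia, -4.54, -4.71 and -5.60 in hypoxia and -3.33, -4.36 and -4.36 with quercetin. It was dim, and the quercetin arrays were above the others, with 2 of 3 normoxia arrays, 2 of 3 hypoxia arrays and all quercetin arrays well above background, so that it was kept only through the quercetin group. Col10a1 rose by 1.90 ± 0.39 (3.72-fold, adjusted p = 0.0052) with quercetin against normoxia, with 0.96 ± 0.39 (adjusted p = 0.06) in hypoxia and 0.93 ± 0.39 (adjusted p = 0.072) between the hypoxic groups. It passed in hypoxia against normoxia without normoxia replicate 3, hypoxia replicate 3 or quercetin replicate 1 (0.96 to 1.29, adjusted p from 0.022 to 0.036), and with the scan day as a block quercetin against normoxia was 1.32 (adjusted p = 0.098), and with normexp 0.65 (adjusted p = 0.40). Col23a1, a transmembrane collagen, read -4.44, -4.44 and -3.76 in normoxia, -3.68, -3.66 and -3.94 in hypoxia and -4.30, -4.16 and -4.40 with quercetin. It overlapped between normoxia and both other groups. Col23a1 fell by 0.53 ± 0.19 (1.44-fold, adjusted p = 0.041) with quercetin against hypoxia, and gave 0.45 ± 0.19 (adjusted p = 0.063) in hypoxia and -0.07 ± 0.19 (adjusted p = 0.79) with quercetin against normoxia. The fall did not pass without hypoxia replicate 1 or 2 or any quercetin array (-0.59 to -0.47, adjusted p from 0.054 to 0.12) and was 0.22 with normexp. The rise in hypoxia passed without normoxia replicate 3 (0.68, adjusted p = 0.0022). The other kept probe of Col23a1, kept only through the quercetin arrays, pointed the other way with quercetin. It gave 1.41 ± 0.54 (adjusted p = 0.05) against hypoxia and 1.30 ± 0.54 (adjusted p = 0.083) against normoxia, and neither passed.

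For 14 chains another probe was also kept, 17 in all, and these gave the same call as the brightest probe in 15 cases in hypoxia against normoxia, 12 in quercetin against hypoxia and 14 in quercetin against normoxia (p adjusted over all 26654 kept probes). Their sign was that of the brightest probe in 15, 15 and 14 of the 17 cases in the same order, and 1 pair passed in opposite directions. The dimmer Col5a1 probe read 1.85, 1.37 and 2.12 in normoxia, 3.27, 3.14 and 3.12 in hypoxia and 1.29, 1.20 and 1.34 with quercetin. Its quercetin arrays were below all normoxia arrays, where those of the brighter probe were above them. It rose by 1.40 ± 0.17 (2.63-fold, adjusted p = 1.7e-04) in hypoxia, fell by 1.90 ± 0.17 (3.74-fold, adjusted p = 4.3e-05) with quercetin against hypoxia and fell by 0.50 ± 0.17 (1.42-fold, adjusted p = 0.041) against normoxia. Averaging both probes gave -0.02 for the last comparison.

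The second probe of Col1a2 gave larger differences than the brightest, 1.01 ± 0.10 (adjusted p = 5.1e-05) in hypoxia and -0.69 ± 0.10 (adjusted p = 4.9e-04) with quercetin against hypoxia, so that by this probe Col1a2 fell with quercetin. For Col1a1, the other probes gave 0.47 ± 0.08 (adjusted p = 0.001) and 0.86 ± 0.16 (adjusted p = 0.0015) in hypoxia, and -0.25 ± 0.08 (adjusted p = 0.023) and -0.23 ± 0.16 (adjusted p = 0.23) with quercetin against hypoxia. The second Col4a1 probe gave smaller rises, 0.45 ± 0.11 (adjusted p = 0.0086) in hypoxia and 0.43 ± 0.11 (adjusted p = 0.015) with quercetin against normoxia, and again -0.02 ± 0.11 (adjusted p = 0.92) between the hypoxic groups. The Col4a5 probe with the glycine repeat gave 0.51 ± 0.15 (adjusted p = 0.018), -1.27 ± 0.15 (adjusted p = 2.0e-04) and -0.76 ± 0.15 (adjusted p = 0.0045), the same direction as the brightest in each. For Col9a1 the probe with the repeat is the brightest. The dimmer Col9a1 probe gave 0.86 ± 0.18 (adjusted p = 0.0034) in hypoxia and -0.81 ± 0.18 (adjusted p = 0.0053) with quercetin against hypoxia. Against normoxia it gave 0.05 ± 0.18 (adjusted p = 0.84) with quercetin, where the brightest was higher. One Col12a1 probe read -8.14 on quercetin replicate 3 and -0.13 to 1.62 elsewhere, so its SE was 1.89 and it passed in no comparison. The second Col8a2 probe fell with quercetin against hypoxia, -0.36 ± 0.12 (adjusted p = 0.035), where the brightest did not pass.

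**Figure D4:**
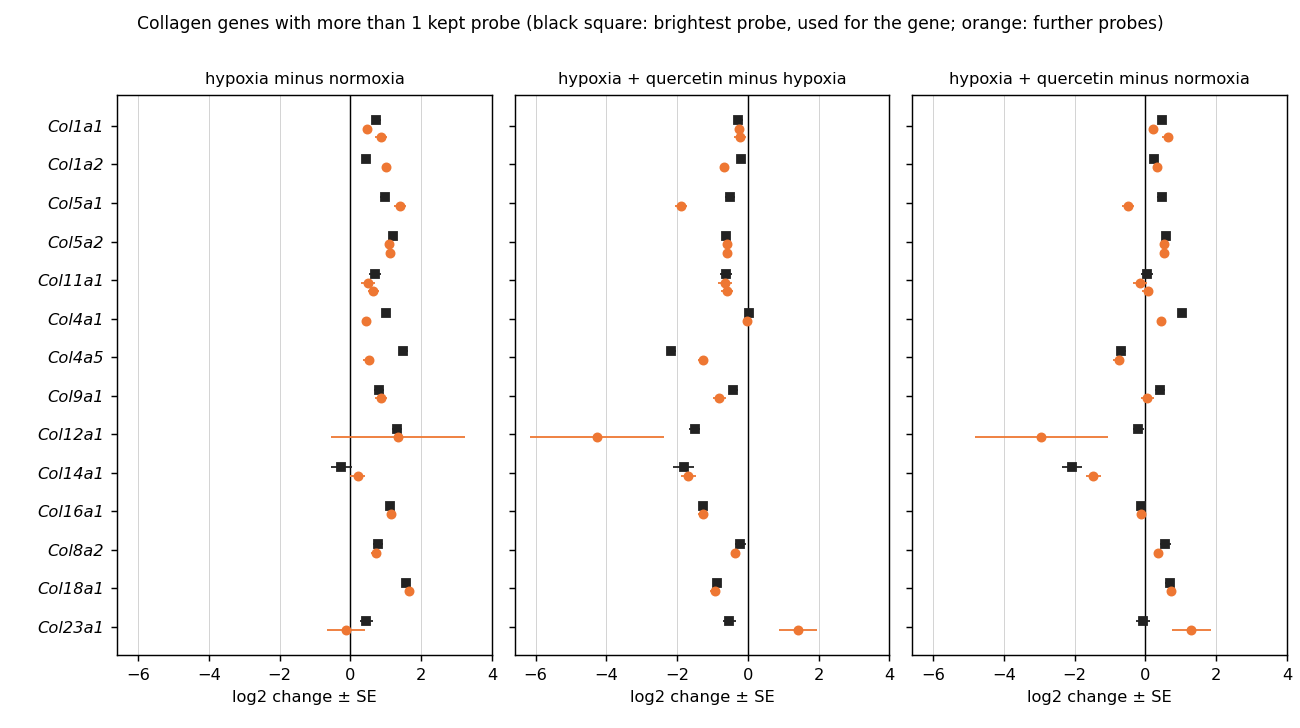
Log2 difference of every kept probe of the 14 chains with more than 1, in the 3 comparisons. The black square is the brightest probe, used for the gene, and orange marks are the others, and only in quercetin against normoxia for Col5a1 did both pass in opposite directions.

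Collagen must be hydroxylated, folded, exported, trimmed and crosslinked, and of a list of 54 genes of these steps, of collagen receptors and of collagen-cleaving enzymes, 46 were tested. Of these, 22 were higher, 6 lower and 18 did not pass in hypoxia against normoxia (median 0.29), beside 35.3% of all genes higher and 28.9% lower (median 0.10). The split was 12 higher and 16 lower with spike-in scaling (12.1% and 48.7% of all genes) and 18 and 10 with quantile normalization (30.9% and 30.6%). With quercetin against hypoxia 2 were higher, 29 lower and 15 did not pass (median -0.60), beside 26.9% and 31.6% of all genes (median -0.08), or 6 and 22 with quantile normalization (28.5% and 27.9%). The 2 higher became 1 without hypoxia replicate 1 and neither Ddr1 nor Colgalt1 passed without hypoxia replicate 2 or 3 or quercetin replicate 1 or 3. Against normoxia, 12 were higher with quercetin, 20 lower and 14 did not pass (median -0.23), beside 23.0% and 21.3% of all genes (median 0.04), or 7 and 26 with spike-in scaling (7.42% and 44.5%).

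Of the 18 hydroxylation and folding genes, 11 rose in hypoxia and 7 did not pass (median 0.46), where 35.3% of all genes were higher. P4ha1 and P4ha2 are catalytic subunits of the prolyl 4-hydroxylase, and P4hb is their shared partner. P4ha1 read 5.21, 4.38 and 5.27 in normoxia, 6.68, 6.59 and 6.77 in hypoxia and 5.46, 5.46 and 5.64 with quercetin. Hypoxia was above all other arrays, and quercetin was just above normoxia. P4ha1 rose by 1.73 ± 0.22 (3.31-fold, adjusted p = 2.3e-04) in hypoxia and fell by 1.16 ± 0.22 (2.23-fold, adjusted p = 0.0023) with quercetin, with 0.57 ± 0.22 (adjusted p = 0.065) against normoxia. The last passed without normoxia replicate 2 (0.28) or 3 (0.73). P4ha2 rose by 1.89 ± 0.19 (adjusted p = 5.9e-05) and P4hb by 1.85 ± 0.09 (adjusted p = 3.5e-06) in hypoxia. With quercetin against hypoxia they fell, P4ha2 with -0.66 ± 0.19 (adjusted p = 0.016) and P4hb with -0.52 ± 0.09 (adjusted p = 0.0018), falls that quantile normalization put at -0.15 and -0.01. The lysyl hydroxylases Plod1 and Plod2 rose in hypoxia, by 1.71 ± 0.14 (adjusted p = 2.3e-05) and 1.31 ± 0.11 (adjusted p = 2.3e-05), and Plod2 fell with quercetin, -0.53 ± 0.11 (adjusted p = 0.0032). Serpinh1, the collagen chaperone HSP47, gave 0.38 ± 0.12 (adjusted p = 0.025) in hypoxia, which turned to -0.15 with quantile normalization and -0.12 with spike-in scaling and did not pass without normoxia replicate 1 or 3 or hypoxia replicate 1 or 3 (0.33 to 0.36). Serpinh1 fell by 0.79 ± 0.12 (1.73-fold, adjusted p = 7.9e-04) with quercetin against hypoxia, and its difference against normoxia was -0.41 ± 0.12 (adjusted p = 0.026), not passing without normoxia replicate 2 or quercetin replicate 2 (-0.34 to -0.30).

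For export from the endoplasmic reticulum, 3 of 4 genes rose in hypoxia and 1 fell, beside 35.3% of all genes higher and 28.9% lower. Sec23a, a coat protein of the vesicles that carry procollagen, rose by 1.82 ± 0.17 (adjusted p = 4.0e-05) in hypoxia and gave -1.02 ± 0.17 (adjusted p = 0.0011) with quercetin against hypoxia. Of 6 genes of propeptide removal, 3 rose in hypoxia and 3 did not pass, where 35.3% of all genes were higher. With quercetin against hypoxia 5 fell, where 31.6% of all genes were lower. Adamts14, which trims the N-terminal propeptide, rose by 2.19 ± 0.15 (adjusted p = 1.1e-05) and then gave -2.62 ± 0.15 (adjusted p = 7.6e-06) with quercetin, but with normexp these were 0.70 (adjusted p = 0.30) and -0.38 (adjusted p = 0.58). Bmp1, the C-terminal propeptidase, rose by 1.09 ± 0.10 (adjusted p = 4.0e-05) and gave -1.32 ± 0.10 (adjusted p = 2.0e-05) with quercetin. Pcolce, which enhances that cleavage, gave 0.20 ± 0.10 (adjusted p = 0.13) in hypoxia and fell by 1.23 ± 0.10 (2.35-fold, adjusted p = 3.5e-05) with quercetin, and its hypoxia difference was -0.41 with quantile normalization and passed without quercetin replicate 2 (0.20, adjusted p = 0.043).

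Among the 5 crosslinking enzymes of the lysyl oxidase family, 2 rose and 1 fell in hypoxia, beside 35.3% of all genes higher and 28.9% lower. Loxl2 rose by 1.42 ± 0.18 (adjusted p = 1.9e-04), Lox by 0.74 ± 0.10 (adjusted p = 3.3e-04), and Loxl1 fell, -0.81 ± 0.12 (adjusted p = 4.8e-04). The difference of Lox in hypoxia was 0.17 (adjusted p = 0.14) with quantile normalization and 0.23 (adjusted p = 0.064) with spike-in scaling. Its fall with quercetin against hypoxia, -0.33 ± 0.10 (adjusted p = 0.022), turned to 0.19 with quantile normalization, and did not pass without hypoxia replicate 2 or 3 or quercetin replicate 1 or 3 (-0.34 to -0.28). Loxl2 was also higher than normoxia with quercetin, 1.12 ± 0.18 (adjusted p = 0.0013), while its difference from hypoxia passed only without normoxia replicate 2 among the arrays left out in turn (-0.30, adjusted p = 0.0065).

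Of 7 collagen receptors, 3 rose in hypoxia and 4 did not pass, where 35.3% of all genes were higher. The integrin chain Itga10 rose by 1.41 ± 0.16 (adjusted p = 1.4e-04) and gave -1.49 ± 0.16 (adjusted p = 1.3e-04) with quercetin, both lost with normexp (0.40 and -0.17). Itga11 gave 0.97 ± 0.21 (adjusted p = 0.0044) in hypoxia and 1.03 ± 0.21 (adjusted p = 0.0052) with quercetin against normoxia, and the first was 0.44 (adjusted p = 0.064) with the slide as a block. Ddr1, a receptor tyrosine kinase for collagen, was higher with quercetin than in normoxia, 1.10 ± 0.15 (adjusted p = 6.2e-04), and its rise against hypoxia, 0.45 ± 0.15 (adjusted p = 0.03), did not pass without hypoxia replicate 2 or 3 or quercetin replicate 1 or 3 (0.36 to 0.44). Its relative Ddr2 fell with quercetin against hypoxia, -0.58 ± 0.08 (adjusted p = 4.0e-04).

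Of 6 tested enzymes that degrade collagen, 4 fell in hypoxia and 2 did not pass (median -1.09), where 28.9% of all genes were lower. With quercetin all 6 were lower than in normoxia (median -3.04), where 21.3% of all genes were lower. Mmp13, a collagenase, fell by 3.66 ± 0.51 (12.7-fold, adjusted p = 3.7e-04) in hypoxia and gave 0.15 ± 0.51 (adjusted p = 0.81) between the hypoxic groups. Mmp9, a gelatinase, gave 0.10 ± 0.29 (adjusted p = 0.77) in hypoxia and fell by 3.48 ± 0.29 (11.2-fold, adjusted p = 3.0e-05) with quercetin against hypoxia, where 2 of 3 quercetin arrays were well above background, and the fall was -1.61 (adjusted p = 0.0055) with normexp. Ctsk, a lysosomal collagenase, fell by 1.85 ± 0.14 (3.6-fold, adjusted p = 1.8e-05) in hypoxia and by 0.84 ± 0.14 (1.79-fold, adjusted p = 0.0013) more with quercetin. Fap, a surface protease that is also in the fibroblast marker list, fell by 1.45 ± 0.11 (2.73-fold, adjusted p = 1.8e-05) and then by 2.28 ± 0.11 (4.87-fold, adjusted p = 4.2e-06), the latter -1.47 with normexp. Mmp14, a membrane-bound collagenase, fell by 0.72 ± 0.09 (1.65-fold, adjusted p = 2.1e-04) in hypoxia, with 0.03 ± 0.09 (adjusted p = 0.76) between the hypoxic groups. Of the 7 other fibroblast markers tested, Dcn fell by 4.24, Lum fell by 3.62 and Dpt fell by 2.91 (log2) in hypoxia. Dcn and Dpt were kept only through the normoxia arrays. Of the 3 hypoxia arrays, Dcn was well above background on 2 and Dpt on 1. Fbln1 rose by 1.05 (adjusted p = 6.3e-05) and Thy1 rose by 0.38 (adjusted p = 0.014), and Pdgfra and S100a4 gave 0.09 each and did not pass. The part of these genes in the collagen differences was not tested.

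**Figure D5:**
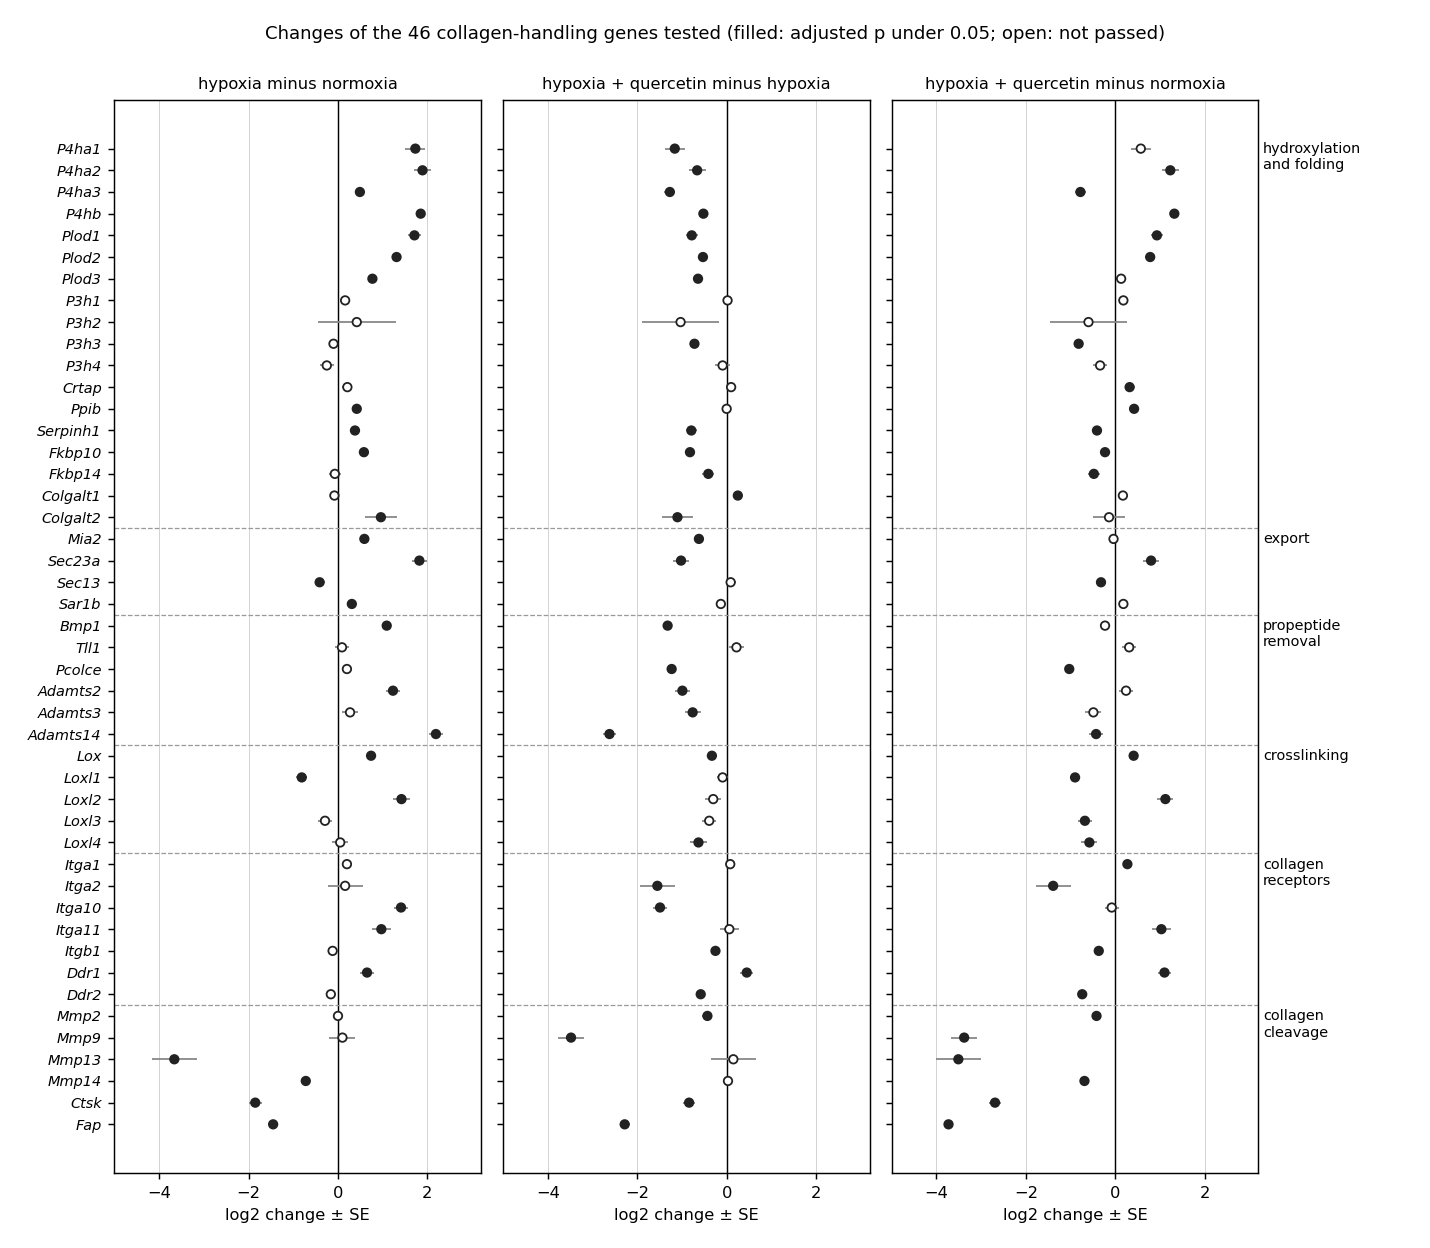
Log2 difference of the 46 tested genes of collagen handling, by role, in the 3 comparisons, with filled points for an adjusted p under 0.05. The hydroxylation and folding genes sit mostly to the right in hypoxia against normoxia (11 of 18 higher) and the cleavage enzymes to the left (4 of 6 lower). Of all genes, 35.3% were higher and 28.9% lower there.

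RefSeq start-site windows on the GRCr8 assembly, 250 bases before to 50 after the start, were matched for 27 of the 35 genes, 30 windows in all. Motifs were searched on both strands. The core of the hypoxia response element, ACGTG, was in 6.67% of the collagen windows and 19.3% of 33469 windows of all genes, and its variant GCGTG in 36.7% and 29.7%. GGGCGG, the GC box, was in 63.3% and 33.1%, CCAAT in 30.0% and 37.5%, and TATAAA in 6.67% and 14.2%. A match describes letters in a window and does not mark a bound site. The upstream parts of Col15a1, the chain with the largest rise in hypoxia, and of Col4a5, the chain with the largest fall with quercetin, are shown for their matches, in capitals, on the plus strand.

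Col15a1, GRCr8 chr5:66297296-66297545: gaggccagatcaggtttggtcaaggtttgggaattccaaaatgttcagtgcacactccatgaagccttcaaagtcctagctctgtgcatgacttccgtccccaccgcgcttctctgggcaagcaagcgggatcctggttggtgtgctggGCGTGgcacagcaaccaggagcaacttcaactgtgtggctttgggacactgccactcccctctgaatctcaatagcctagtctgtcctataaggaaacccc

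Col4a5, GRCr8 chrX:109907109-109907358: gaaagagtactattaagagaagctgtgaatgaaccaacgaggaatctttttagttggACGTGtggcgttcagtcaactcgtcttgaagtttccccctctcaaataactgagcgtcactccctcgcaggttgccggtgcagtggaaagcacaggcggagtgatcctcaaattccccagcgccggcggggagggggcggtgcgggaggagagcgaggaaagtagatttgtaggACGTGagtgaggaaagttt

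The capitals mark the single GCGTG of Col15a1, 101 bases before the start, and the 2 copies of ACGTG of Col4a5, 193 and 19 bases before it. The window of Col4a3 holds neither. Some collagen genes lie head to head. The starts of Col4a1 and Col4a2, on opposite strands of chromosome 16, are 77 bases apart, and those of Col4a3 and Col4a4 are 413 apart. The 76 bases between the first pair are shown because both chains were higher than normoxia with and without quercetin, with the GC box in capitals, read from the plus strand.

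Col4a1 and Col4a2, GRCr8 chr16:84885521-84885596: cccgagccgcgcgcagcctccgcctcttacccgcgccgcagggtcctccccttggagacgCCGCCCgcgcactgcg

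This stretch is 78.9% G and C, with 1 GC box and no CCAAT.

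The remaining 7 chains were not well above background on all 3 arrays of any group and were not tested. Of these, Col24a1, Col6a5 and Col6a6 were above background on no array. Col22a1 was above it on 1 normoxia array, Col4a4 on 2 normoxia arrays and 1 hypoxia array, Col7a1, the anchoring fibril collagen of skin, on 2 normoxia and 2 quercetin arrays, and Col9a3 on 2 normoxia and 2 hypoxia arrays.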

How the data were processed

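Total RNA was measured on 9 one-colour Agilent rat arrays, 3 per group. The intensity values deposited per array are scanner output of Agilent Feature Extraction 10.7.3.1, per the file headers, already background-subtracted and detrended within the array but not scaled between arrays. The label protocol names a miRNA labelling kit, whereas the scanner protocol in the file headers is one for gene expression. The authors' deposited table of log2 values, in which all 9 arrays have one distribution (median 5.71), served as an alternative, and no source used here says how it was made. It was identified by correlation with the scanner values, 0.9913 or more on each array.

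Each array's processed intensity was put on the log2 scale and its own 75th percentile, taken without control probes, was subtracted. Control spots (1639) and outlier-flagged spots (71 to 148 per array) were left out, and spots of 1 probe were averaged. A probe was kept if some group had it well above background on each of its 3 arrays (26654 probes, 65.0%), and a gene was read from its brightest kept probe. Gene names came from the accession through RefSeq for 18028 probes, from a symbol for 3168 and a synonym for 400, and stayed as in the files for 19416. Group means were fitted to all 9 arrays with limma 3.58.1 in R 4.3.3 (lmFit and eBayes, two-sided), with 6 residual and 2.30 prior degrees of freedom and Benjamini-Hochberg adjustment over 22107 genes. The procedure was tested on simulated data. The small number of arrays limits the precision.

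Same-numbered samples did not deviate together (correlations of -0.27 to 0.02), so the main fit paired nothing by replicate number. The deviations of the normoxia arrays also carry slide and scan day, so this check could not exclude a pairing. Any collagen gene under the name rule could be named, with values per array for those that passed in at least 1 comparison without overlap of the groups, and for Col1a1, Col1a2, Col3a1, Col4a1, Col4a2 and Col18a1. Handling genes are up to 4 per role with the smallest adjusted p in a comparison, with P4ha1, P4ha2, Plod2, Serpinh1 and Lox always. Col20a1, Colgalt1, Cthrc1 and the further probes lie outside this rule and were named after their values were seen. The members, classes and gene lists were chosen with earlier results of these data known, so the counts are descriptions. Alternatives were normexp background correction (offset 50), quantile normalization, median and spike-in scaling, other probe filters and probe summaries, the authors' table, flagged spots kept, only the 2 compared groups, replicate, slide and scan day blocks, and each array left out. For the handling genes these were added after seeing the data. The sequence and position of 1 collagen probe are not reported here.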

Additional observations from a re-analysis of the deposited data

How the results depend on the processing

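In hypoxia against normoxia, the number of collagen chains higher ranged from 15 to 24 over all settings and 2 were lower in each. In quercetin against hypoxia, the 2 chains higher became 1 with normexp, 4 with quantile normalization and with the authors' deposited value table, and 1 to 2 with each array left out. In quercetin against normoxia, the 13 chains higher became 3 with normexp, 5 with spike-in scaling, 5 with the scan day as a block and 7 to 13 with each array left out, and the 4 lower became 1, 10 and 8 with the first 3. The cause of the normexp losses was not tested. With the replicate number as a block, the chains higher and lower were 22 and 2, 2 and 17, and 11 and 3 in the 3 comparisons, and the handling genes 21 and 6, 1 and 26, and 10 and 16, although no pairing by number was seen.

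Of the handling genes, in hypoxia against normoxia the 22 higher became 14 with normexp and 12 with spike-in scaling, and the 6 lower became 10 with quantile normalization, 10 with the authors' table and 16 with spike-in scaling. In quercetin against hypoxia, the 2 higher became 0 with normexp (limma, 0 at an unadjusted p under 0.05), 0 with no filter on dim probes (2 unadjusted), 6 with quantile normalization and with the authors' table, 1 with median scaling, 1 with slide as a random block, and 0 to 2 with each array left out, while the 29 lower became 18 with normexp. In quercetin against normoxia, the 12 higher became 6 with normexp and 7 with spike-in scaling, and the 20 lower became 10 with normexp and 13 with the scan day as a block.

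Differences that turned direction in hypoxia against normoxia were Col1a2 (-0.16 with quantile normalization and the authors' table, -0.07 with spike-in scaling), Col3a1 (-0.04 with quantile normalization and the authors' table), Col5a3 (-0.08 with spike-in scaling), Serpinh1 (-0.15 with quantile normalization and the authors' table, -0.12 with spike-in scaling), Pcolce (-0.41 with quantile normalization and the authors' table) and P4ha3 (-0.02 with spike-in scaling). In quercetin against hypoxia they were Col23a1 (0.22 with normexp, 0.44 as the mean of its probes), Col1a2 (0.23) and Lox (0.19), these last with quantile normalization and the authors' table. In quercetin against normoxia they were Col1a2 (-0.17), Col3a1 (-0.37) and Col9a1 (-0.01) with spike-in scaling, Col5a1 (-0.02 as the mean of its probes), Col2a1 (-0.69 with the scan day as a block) and Adamts14 (0.32 with normexp). Of 3512 gene values recomputed, 3150 kept their direction and side of the threshold, 231 no longer passed and 37 newly passed. Another 24 turned direction and 70, of 17 genes, changed sign without passing in either fit. Some settings could not change the log2 difference of a gene, so part of the 3150 was no test of direction. These were testing every kept probe on its own, fitting only the compared groups, and the replicate block. Leaving out an array of the group not compared could not change the difference either. In all of these only the p-value could move. Dim chains such as Col4a3, Col10a1 and Col14a1, near background in at least 1 group, are limited by signal.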

Other observations

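Some probes describe a collagen but bear no name of the Col form, and so were left out of the counts. A probe described as the alpha 1 chain of type VIII collagen fell by 0.84 ± 0.13 in hypoxia against normoxia (limma, adjusted p = 7.1e-04) and rose by 0.54 ± 0.13 (adjusted p = 0.0081) with quercetin against hypoxia, beside a fall of Col8a1 by 0.87 and a rise by 0.50. A probe described as similar to the alpha-6 chain of type IV collagen rose by 0.93 in hypoxia and fell by 1.18 with quercetin against hypoxia. A probe described as similar to the alpha-3 chain of type VI collagen gave 0.63 (adjusted p = 0.062) in hypoxia and fell by 1.72 with quercetin against hypoxia and by 1.09 against normoxia. Probes of other descriptions differed from the named gene. A probe described as the alpha 2 chain of type IX collagen rose by 0.71 in hypoxia (adjusted p = 0.018) but gave -0.29 (adjusted p = 0.26) with quercetin against hypoxia, where Col9a2 fell by 2.15. A probe described as similar to the alpha-1 chain of type XI collagen gave 0.23 (adjusted p = 0.51) in hypoxia and 0.59 (adjusted p = 0.11) with quercetin against hypoxia, and was higher with quercetin than in normoxia (0.81, adjusted p = 0.048), unlike Col11a1. A probe described as similar to the alpha-3 chain of type IX collagen was dim on every array with quercetin, none of which put it well above background.

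Cthrc1, a secreted protein with a short collagen repeat that is made by activated mesenchymal cells of injured arteries, read 4.17, 3.75 and 4.69 in normoxia, 3.34, 3.31 and 3.31 in hypoxia and 1.18, 1.00 and 1.18 with quercetin. The 3 groups did not overlap. Cthrc1 fell by 0.88 ± 0.21 in hypoxia (adjusted p = 0.0055), by 2.20 ± 0.21 with quercetin against hypoxia (adjusted p = 5.4e-05) and by 3.09 ± 0.21 with quercetin against normoxia (adjusted p = 2.2e-05).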
